A study of Mus musculus with 40 samples.

Results

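The genes described here are 39 genes of peroxisome biogenesis and peroxisomal lipid oxidation, measured by RNA-seq in mouse brown adipose tissue (BAT). They were chosen by symbol alone from the 20295 genes of the deposited count table, as peroxins, peroxisomal membrane transporters, enzymes of beta-oxidation and alpha-oxidation, enzymes of ether lipid synthesis and enzymes of the peroxisomal matrix. The rule uses no measured value, although earlier results of these data were known when the list was drawn up, and all 39 were among the 13277 genes with enough counts to be tested.

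Peroxisomes are membrane-bound organelles that shorten very long-chain and branched fatty acids, make the first steps of ether lipids and break down the hydrogen peroxide that these reactions release. Peroxins build the organelle: PEX5 and PEX7 bind matrix proteins in the cytosol and carry them to a docking complex at the membrane, an ubiquitin ligase and an ATPase return the receptors, and PEX3, PEX16 and PEX19 insert membrane proteins. In brown adipocytes, which burn fatty acids in mitochondria to make heat, peroxisomes grow in number when the tissue is activated, and their shortened fatty acids can be passed on to mitochondria.

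The study compared 2 ways of raising Gs signalling in BAT of male mice kept at thermoneutrality (29 °C). C-3BO mice overexpressed Gpr3, a constitutively active Gs-coupled receptor, in brown adipocytes: a Gpr3 transgene behind a stop cassette (the TTG allele) was opened by Ucp1-Cre, so that every cell that had expressed Ucp1 carried it. Their littermate controls had either the transgene without Cre or Cre without the transgene. The C-3BO cohort was 13 to 19 weeks old and ate chow, or a high-fat diet (HFD, 60 kcal% fat) for 7 days. In a separate cohort, 15-week-old control littermates of an inducible Gpr3 line were injected each day for 9 days with CL316,243 (CL, 1 mg/kg), an agonist of the β3-adrenergic receptor, or with saline (10 uL/g), again on chow or on HFD that began after 2 days of injections. Each of the 8 groups held 5 mice, 1 library per mouse. The 4 treatment comparisons (C-3BO against control and CL against saline, each on chow and on HFD) share no library with each other.

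Library totals ran from 849126 to 15260516 counts, the smallest being HFD saline replicate 4. Gpr3 checked the labels: it stood at 266 to 463 counts per 1000000 counts of the scaled library (CPM) in Chow C-3BO and 688 to 919 CPM in HFD C-3BO, against at most 1.18 CPM elsewhere except 9.15 CPM in Chow CL replicate 3. All 11 brown adipocyte markers, Ucp1 among them, were detected in every group. The 12 libraries of lowest total, namely all 5 HFD saline, all 5 HFD CL and replicates 4 and 5 of HFD C-3BO, stood apart: the liver transcript Alb was at 62.2 CPM or more in each of them and at 1.62 CPM or less in the other 28, and transcripts of the epididymis were also present, at up to 61.6 CPM over 5 genes. The HFD comparison of C-3BO was therefore also made without replicates 4 and 5. Chow CL replicate 5 had 1645 CPM of Ucp1, within the saline range of 1268 to 1866 CPM and below the 5946 to 8991 CPM of the other Chow CL mice, and it was the lowest mouse of its group for 24 of the 39 genes. In whole tissue, fewer cells of a type and less RNA per cell cannot be told apart.

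**Figure D1:**
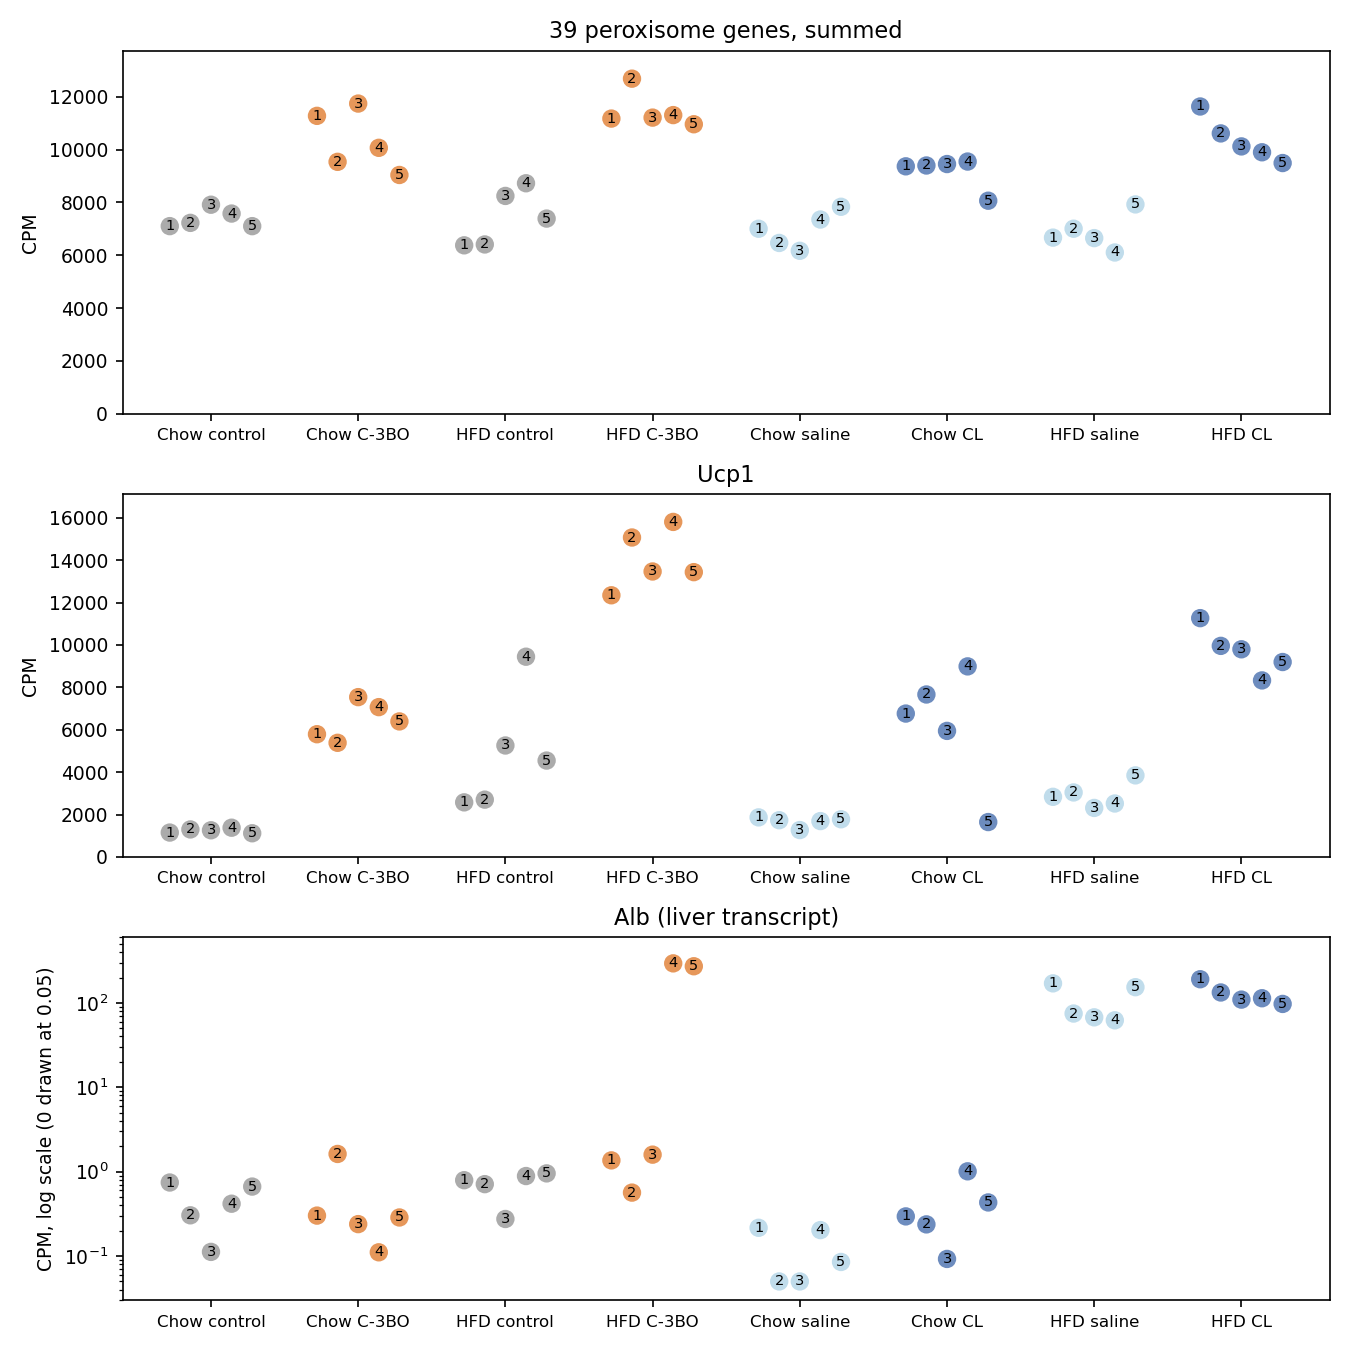
CPM (vertical axes) of the 39 genes summed, of Ucp1 and of Alb (log scale, 0 drawn at 0.05) in each of the 40 mice by group, with replicate numbers in the points. The sums of treated and untreated mice do not overlap within any treatment comparison, Chow CL replicate 5 lies with the saline mice for Ucp1, and Alb is high in the 12 smallest libraries alone.

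A pair of sequences helps to read the values that follow. Acaa1a (chr9:119250412-119259413, plus strand, mm9) and Acaa1b (chr9:119057161-119066211, minus strand) encode peroxisomal 3-ketoacyl-CoA thiolases, which cut the chain in the last step of beta-oxidation, and their coding sequences of 1275 bases each were 96.5% identical, with 44 differing bases. They behaved differently in these data, so the stretch of 60 coding bases (259 to 318) with the most differences is shown, with the 11 bases that differ in capitals. The sequences are the reference transcripts of the annotation, 5′ to 3′.
Acaa1a: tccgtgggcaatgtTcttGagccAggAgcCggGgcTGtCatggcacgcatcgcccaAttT
Acaa1b: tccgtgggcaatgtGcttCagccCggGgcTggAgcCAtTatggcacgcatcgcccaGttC

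Reads that fall where the copies are alike could be counted for either gene: 34.1% of the windows of 50 bases in the Acaa1a transcript and 35.5% of those in Acaa1b were found in the other. A further 10.7% of the Acaa1b windows were found in Dlec1 and 1.11% of the Acaa1a windows in Myd88. Levels of Acaa1a and Acaa1b are uncertain to that extent. Of the 37 genes whose transcript was found by symbol, 29 shared no such window with any other gene, and only Acaa1a, Acaa1b and Pex3 shared more than 5% with other genes (Pex3 9.47%, with Adat2, which overlaps it on the opposite strand).

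PPARα and PPARγ, nuclear receptors that control many genes of fatty acid oxidation, bind with RXR to 2 copies of the hexamer AGGTCA set in a direct repeat with 1 base between them. Promoters were searched for this motif from 250 bases before to 50 bases after each start (mm9, RefSeq), on both strands, with at most 2 mismatches over the 12 letters. The window of Cat, the gene of catalase, held the motif, and no other member's window did (1 of 39, 2.56%, against 3.27% of all 20295 windows). It is shown because Cat was higher in all 4 treatment comparisons. The capitals mark the 13 bases of the match, which begins 204 bases before the start, in the window chr2:103325261-103325560 on the minus strand.
Cat promoter: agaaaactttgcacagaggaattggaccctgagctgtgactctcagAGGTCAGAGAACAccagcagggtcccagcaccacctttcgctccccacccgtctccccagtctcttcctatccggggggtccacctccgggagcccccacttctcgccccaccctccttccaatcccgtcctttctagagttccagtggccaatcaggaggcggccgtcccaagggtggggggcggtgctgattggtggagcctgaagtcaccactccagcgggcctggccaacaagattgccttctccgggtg

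With 1 mismatch or none, no member had a match, and the share of members with a match was not above that of all genes. A motif farther away lay outside the window.

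Compared per kilobase of exon (RPKM), which allows genes to be set side by side, levels ranged widely. Ech1, an isomerase of unsaturated acyl-CoAs that is also found in mitochondria, was the highest with a mean of 1350 RPKM over the 40 mice, followed by Phyh (559 RPKM) and Cat (433 RPKM). These 3 genes held 52.3% of the summed RPKM of the 39 on average. Idh1, Gnpat, Scp2, Hsd17b4, Nudt7, Abcd3 and Pex19 came next, between 193 and 104 RPKM. At the other end, Acox2 averaged 1.15 RPKM, Far1 5.56, Pex26 6.55 and Agps 7.64 RPKM. Among mice of 1 group the median coefficient of variation was between 10.5% (HFD C-3BO) and 17.6% (HFD control). Ehhadh varied most in 5 of the 8 groups, up to 90.8% in HFD control, whereas Phyh and Acox3 were among the steadiest.

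Most of the 39 genes were higher in BAT of C-3BO mice on either diet, and of CL-treated mice on either diet. The summed CPM of the 39 genes was 1.40-fold higher in C-3BO than in control mice on chow, with 9038 to 11743 CPM against 7101 to 7912 CPM. On HFD it was 1.54-fold higher (10959 to 12685 CPM against 6375 to 8725 CPM). CL gave ratios of 1.32 on chow (8064 to 9547 CPM against 6167 to 7834 CPM) and 1.51 on HFD (9490.4 to 11632 CPM against 6103 to 7924 CPM). No treated mouse overlapped with the untreated mice in any of these sums. The summed brown adipocyte markers moved with the same groups: they were at 12917 to 17768 CPM in Chow control and 20615 to 29686 CPM in Chow C-3BO, and at 14985 to 28335 CPM in HFD control and 30489.6 to 34907 CPM in HFD C-3BO. With saline and CL they were at 13230.5 to 19211 and 17894 to 26552 CPM on chow, where the mice overlapped, and at 14646 to 17766 and 22556 to 28784 CPM on HFD. The markers did not move alike. Ucp1 had means of 1239 CPM in Chow control and 6435 CPM in Chow C-3BO, and of 4906 and 14026 CPM on HFD. Cidea had means of 2599 and 2779 CPM on chow and 2088 and 2938 CPM on HFD. Pparg and Ppargc1a, also among the markers, were called in no treatment comparison. The part of the markers in the sums of the 39 genes was not tested.

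Counted gene by gene, 25 members rose in C-3BO mice on chow and 5 fell (edgeR adjusted p under 0.05), where 15.8% of all tested genes rose and 15.9% fell. On HFD, 26 rose and 1 fell (19.3% and 15.5% of all genes). Without replicates 4 and 5 of HFD C-3BO, 26 still rose and none fell (14.6% and 10.4% of all genes). Between these fits Agps lost its call (adjusted p = 0.0678) and Gnpat gained one (adjusted p = 0.0420), and the only member that had fallen, Pxmp2, was no longer called. CL raised 20 members on chow and lowered 1 (9.16% and 6.13% of all genes). On HFD, CL raised 24 and lowered 1 (12.7% and 10.8%). The median log2 fold change of the 39 genes was 0.48 and 0.63 for C-3BO on chow and HFD, and 0.34 and 0.50 for CL, where the median of all tested genes was -0.03, -0.02, -0.01 and -0.01.

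The direction of these counts did not depend on the scaling. Dividing by library totals instead of the trimmed mean of M-values (TMM) moved the median of all genes by -0.20, -0.17, -0.14 and -0.14 in the 4 comparisons. The members that rose then numbered 21, 25, 15 and 20, where 7.86%, 12.1%, 5.26% and 7.4% of all tested genes rose. Those that fell numbered 7, 3, 2 and 2, and the share of all genes that fell was not worked out for this scaling.

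Most changes were moderate. Past a log2 fold change of 1, the limit the study used, 5 members were higher and 1 lower in C-3BO mice on chow (2.37% and 4.81% of all genes), and 8 higher and none lower on HFD (4.34% and 3.1%). For CL the counts were 2 higher on chow (1.12%, with 1.45% of all genes lower) and 5 higher on HFD (2.06% in each direction), with no member lower. As a check on single mice, the C-3BO and control mice did not overlap, with C-3BO higher, for 22 members on chow (10.4% of all genes) and 24 on HFD (11.4%). CL and saline mice did not overlap, with CL higher, for 12 members on chow (5.88%) and 22 on HFD (9.68%). The chow count of CL was 17 when replicate 5 was left out (10.3% of all genes), while the number of members that rose by the test remained 20 (10.6% of all genes in that fit).

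Across the 4 comparisons, 15 members rose in every one (4.15% of all tested genes did): Pex5, Pex7, Pex16, Pex19, Abcd3, Slc25a17, Hsd17b4, Acaa1b, Scp2, Amacr, Hacl1, Cat, Lonp2, Nudt7 and Idh1. In 8 of them, treated and untreated mice overlapped in none of the 4 comparisons (1.53% of all genes): Abcd3, Hsd17b4, Acaa1b, Scp2, Amacr, Hacl1, Cat and Nudt7. Another 8 rose in 3 comparisons, 3 in 2 and 5 in 1. Gnpat, Far1 and Acaa1a were called in none, and 5 members fell in at least 1 (Pex10, Abcd2, Pxmp2, Acox2 and Phyh).

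Some of these calls were close to the threshold. The members had 103 calls over the 4 treatment comparisons, and 20 of them were lost under at least 1 of the alternatives tried (other scalings, filters and tools, and each mouse left out). Of the 15 members that rose in every comparison, 11 did so under every alternative: Pex16, Abcd3, Slc25a17, Hsd17b4, Acaa1b, Scp2, Amacr, Hacl1, Cat, Nudt7 and Idh1. The other 4, Pex5, Pex7, Pex19 and Lonp2, lost their call with CL on chow under some. Calls that leaving out 1 mouse ended are given with each gene.

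**Figure D2:**
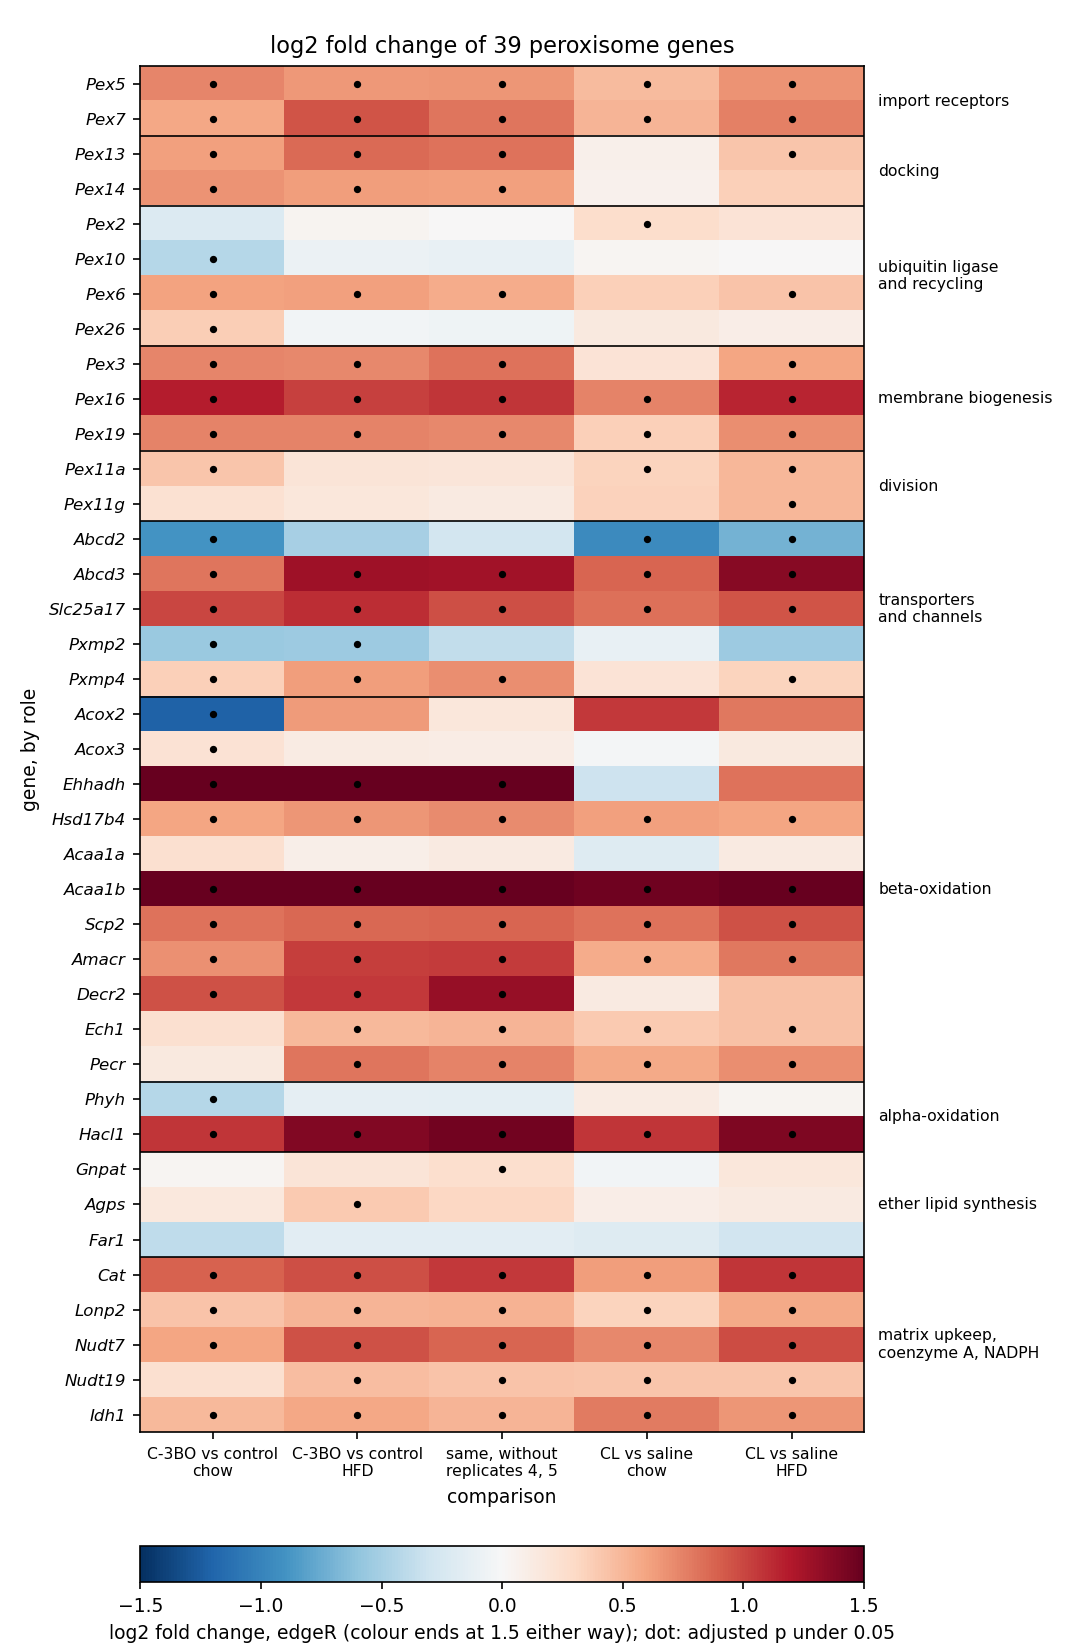
Log2 fold change (colour, ending at 1.5 either way) of each of the 39 genes, in rows by role, in the 4 treatment comparisons and in HFD C-3BO without replicates 4 and 5, in columns, with a dot where the adjusted p is under 0.05. Acaa1b and Hacl1 are high in every column, Abcd2 is below 0 in every column, and Phyh, Acaa1a and the ether lipid genes have few dots.

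Of the 13 peroxins, 10 rose and 1 fell in C-3BO mice on chow (15.8% and 15.9% of all tested genes), and 8 rose on HFD (19.3%). With CL, 6 rose on chow (9.16%) and 9 on HFD (12.7%). Both import receptors rose in all 4 comparisons (4.15% of all tested genes did). Pex5, the receptor for proteins that end in the type 1 targeting signal, stood at 143, 130.1, 160.0, 128 and 136 CPM in Chow control and at 248, 225, 229.8, 232 and 223 CPM in Chow C-3BO. On HFD it was at 128, 132, 165, 190.3 and 154 CPM in control and 244, 258, 229, 233 and 247 CPM in C-3BO mice. All C-3BO mice were above all controls, with log2 fold changes of 0.73 ± 0.12 (adjusted p = 1.16e-05) and 0.65 ± 0.12 (adjusted p = 4.08e-05) by edgeR's quasi-likelihood test, where the error is the SE, as in what follows. Pex5 also rose with CL, by a log2 fold change of 0.48 ± 0.12 (adjusted p = 0.00471) on chow, where the mice overlapped, and 0.67 ± 0.12 (adjusted p = 7.00e-05) on HFD. Pex7, the receptor for the type 2 signal that thiolases and AGPS carry, was at 31.7, 32.3, 38.8, 52.1 and 54.3 CPM in HFD control and 77.6, 67.3, 73.5, 95.4 and 87.7 CPM in HFD C-3BO. No HFD C-3BO mouse fell below a control, and the log2 fold changes of Pex7 were 0.58, 0.94, 0.50 and 0.75 (C-3BO on chow and HFD, then CL on chow and HFD, adjusted p = 0.00294, 5.10e-06, 0.0172 and 0.000433). The Pex7 call for CL on chow was lost without saline replicate 1, 2 or 3 (adjusted p up to 0.0700), and that of Pex5 when the 2 groups were fitted alone (adjusted p = 0.0760).

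Both docking genes rose in C-3BO mice on chow and on HFD (15.8% and 19.3% of all tested genes). Pex13 (chr11:23546479-23565935, minus strand), a membrane protein of the docking complex, was at 142, 152, 169, 162 and 144 CPM in Chow control and 218, 225, 285, 221 and 225 CPM in Chow C-3BO. With CL on chow it was at 166, 159.6, 159.9, 162 and 138 CPM against 164, 135, 153, 167 and 128 CPM with saline. Every Chow C-3BO mouse was above every control, while CL and saline mice on chow covered the same range, and the log2 fold changes were 0.61 ± 0.11 (adjusted p = 3.09e-05) and 0.08 ± 0.11 (adjusted p = 0.694). On HFD Pex13 was at 219 to 276 CPM in C-3BO against 111 to 173 CPM in control mice, and at 154 to 224 CPM with CL against 127 to 154 CPM with saline, without overlap in either, though narrowly for CL (log2 fold changes of 0.85 ± 0.11, adjusted p = 8.75e-08, and 0.41 ± 0.11, adjusted p = 0.00483). Pus10 overlaps Pex13 on the opposite strand, and reads of the pair cannot be told apart if the counting ignored strand, which the sources do not give. Pex14, its partner in docking, went from 74.1, 72.0, 89.3, 78.2 and 77.1 CPM in Chow control to 137, 115, 143, 117 and 113 CPM in Chow C-3BO, with no overlap (log2 fold change 0.68 ± 0.13, adjusted p = 0.000160). Its log2 fold change was 0.63 ± 0.13 (adjusted p = 0.000347) for C-3BO on HFD, 0.06 ± 0.13 (adjusted p = 0.824) for CL on chow and 0.36 ± 0.14 (adjusted p = 0.0588) for CL on HFD.

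Of the 4 genes for ubiquitin-dependent receptor recycling, 2 rose and 1 fell in Chow C-3BO (15.8% and 15.9% of all tested genes). In each of the other comparisons 1 rose (19.3% of all genes in HFD C-3BO, 9.16% and 12.7% with CL on chow and HFD). Over so few genes nothing is read from these counts. Pex6, which encodes a subunit of the ATPase that pulls the receptors out of the membrane, was at 198, 224, 302, 281 and 331 CPM in HFD control and 378, 436, 369, 385 and 477 CPM in HFD C-3BO, all C-3BO mice above all controls (log2 fold change 0.61 ± 0.16, adjusted p = 0.00262). It also rose in C-3BO mice on chow, by 0.60 (adjusted p = 0.00387), and with CL on HFD, by 0.43 (adjusted p = 0.0463), and was called in neither direction with CL on chow (log2 fold change 0.35, adjusted p = 0.128). The call with CL on HFD was lost whichever of the 10 mice was left out (adjusted p = 0.0529 to 0.0865). Pex2, a ubiquitin ligase subunit, was at 82.8, 85.9, 86.9, 91.1 and 87.3 CPM in Chow saline and 117, 108, 89.4, 101 and 104 CPM in Chow CL. The CL mice reached higher but overlapped with saline mice, with a log2 fold change of 0.26 ± 0.09 (adjusted p = 0.0442). This call was lost in 8 of the 10 fits with 1 mouse left out (all but those without saline replicate 4 or CL replicate 3, adjusted p up to 0.138) and under 5 of 7 other alternatives, DESeq2 among them (adjusted p = 0.0523). In Chow C-3BO it was at 77.8, 75.2, 88.8, 80.4 and 83.8 CPM against 84.9, 84.0, 127, 92.1 and 81.0 CPM in Chow control, which is lower in mean but overlapping (log2 fold change -0.21 ± 0.09, adjusted p = 0.0765). Its ligase partner Pex10 fell in C-3BO mice on chow (log2 fold change -0.43 ± 0.13, adjusted p = 0.00864), and Pex26, the membrane anchor of the ATPase, rose there (0.37 ± 0.13, adjusted p = 0.0260), a call lost without control replicate 3 or 4 or C-3BO replicate 1 or 4. Neither was called in the other 3 comparisons.

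All 3 membrane biogenesis genes rose in C-3BO mice on both diets and with CL on HFD (15.8%, 19.3% and 12.7% of all tested genes). Pex16 (chr2:92215396-92221377, plus strand), an integral membrane protein that recruits PEX3, changed most among the peroxins. It was at 50.8, 44.8, 73.0, 53.0 and 46.5 CPM in Chow control and 136, 105, 154, 112 and 99.4 CPM in Chow C-3BO. On HFD the values were 36.8, 33.9, 72.1, 78.5 and 45.2 CPM in control and 102, 129, 108, 91.3 and 116 CPM in C-3BO mice. The lowest C-3BO mouse lay above the highest control on each diet, and the log2 fold changes were 1.18 ± 0.20 (adjusted p = 2.68e-05) and 1.03 ± 0.20 (adjusted p = 0.000116). On chow, Pex16 was at 48.7, 43.5, 44.3, 62.6 and 79.968 CPM with saline and 85.3, 108, 113, 96.2 and 67.5 CPM with CL. Injected mice on HFD had 39.004, 47.2, 38.5, 22.1 and 46.5 CPM with saline and 117, 84.7, 91.1, 87.3 and 64.3 CPM with CL. Saline replicate 5 lay above CL replicate 5 on chow, and on HFD there was no overlap, with log2 fold changes of 0.75 ± 0.20 (adjusted p = 0.00863) and 1.14 ± 0.21 (adjusted p = 0.000113). Pex19, the cytosolic receptor for membrane proteins, was at 221, 229, 301, 225 and 209 CPM in Chow control and 399, 381, 442, 395 and 366 CPM in Chow C-3BO, again without overlap. Its log2 fold changes were 0.74 and 0.75 for C-3BO (adjusted p = 8.17e-06 and 5.07e-06) and 0.36 and 0.70 for CL (adjusted p = 0.0332 and 3.47e-05). The Pex19 call for CL on chow was lost without saline replicate 1, 2 or 3 or CL replicate 2, 3 or 4 (adjusted p up to 0.109) and with library totals (adjusted p = 0.128). Pex3, the docking site of PEX19, went from 27.1, 29.5, 32.5, 32.2 and 26.8 CPM in Chow control to 49.2, 46.7, 57.1, 49.5 and 43.7 CPM in Chow C-3BO, with a gap between the groups. The change of Pex3 was 0.73 ± 0.12 (adjusted p = 7.81e-06) and 0.72 ± 0.12 (adjusted p = 7.33e-06) for C-3BO on chow and HFD, 0.59 ± 0.12 (adjusted p = 0.000525) for CL on HFD, and not past the test for CL on chow (0.21 ± 0.12, adjusted p = 0.226).

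Of the 2 division genes, 1 rose in Chow C-3BO, none in HFD C-3BO, 1 with CL on chow and 2 with CL on HFD. The shares of all tested genes were 15.8%, 19.3%, 9.16% and 12.7%, and over so few genes nothing is read from these counts. Pex11a, which elongates and divides peroxisomes, was at 45.3, 43.4, 43.7, 45.9 and 45.3 CPM in Chow saline and 64.6, 55.2, 56.0, 54.2 and 51.6 CPM in Chow CL, every CL mouse being higher (log2 fold change 0.33 ± 0.12, adjusted p = 0.0497, just inside the threshold). It rose in Chow C-3BO by 0.41 (adjusted p = 0.00752) and with CL on HFD by 0.49 (adjusted p = 0.00348), and not past the test in HFD C-3BO (0.20, adjusted p = 0.198). The Pex11a call for CL on chow was lost in 9 of the 10 fits with 1 mouse left out, all but that without CL replicate 5 (adjusted p up to 0.143). The related Pex11g was called once, for CL on HFD (0.50 ± 0.16, adjusted p = 0.0202), and not without saline replicate 1 or 2 or CL replicate 2 (adjusted p up to 0.0761).

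Among the 5 genes of membrane transporters and channels, 3 rose and 2 fell in C-3BO mice on chow (15.8% and 15.9% of all tested genes). Abcd3 (chr3:121461828-121518133, minus strand), the transporter of branched and dicarboxylic acyl-CoAs, rose in all 4 comparisons. Chow control mice had 321, 381, 427, 342 and 362 CPM and Chow C-3BO mice 711, 625, 674, 630.3 and 549 CPM. On HFD, control mice had 239, 225, 423, 486 and 310.0 CPM and C-3BO mice 756, 847, 810.0, 941 and 695 CPM. No C-3BO mouse came near a control, and the log2 fold changes were 0.80 ± 0.17 (adjusted p = 0.000374) and 1.27 ± 0.17 (adjusted p = 3.43e-07). Saline mice had 303, 242, 249, 352 and 298 CPM and CL mice 500.4, 507, 656, 618 and 366 CPM on chow. On HFD they had 246, 303, 218, 216 and 382 CPM and 832, 758, 672, 661 and 599.9 CPM. The groups were again apart, narrowly on chow, where CL replicate 5 was lowest, with log2 fold changes of 0.87 ± 0.17 (adjusted p = 0.000369) and 1.36 ± 0.17 (adjusted p = 2.39e-07).

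Slc25a17, a peroxisomal carrier of coenzyme A and other cofactors, also rose in all 4 comparisons, the mice overlapping with CL on chow. It was at 58.4, 65.6, 75.1, 68.5 and 59.4 CPM in Chow control and 134, 133, 145, 138 and 106 CPM in Chow C-3BO, without overlap. The log2 fold changes were 1.01 ± 0.20 (adjusted p = 0.000239) and 1.10 ± 0.20 (adjusted p = 5.26e-05) for C-3BO and 0.82 ± 0.20 (adjusted p = 0.00469) and 0.95 ± 0.21 (adjusted p = 0.000969) for CL. Pxmp4, a membrane protein, rose in 3 comparisons (log2 fold changes 0.36, 0.63 and 0.33, against 0.21 for CL on chow, edgeR adjusted p = 0.00857, 1.49e-05, 0.0258 and 0.191). The Pxmp4 call in Chow C-3BO was lost without C-3BO replicate 1 (adjusted p = 0.0580), and that with CL on HFD without saline replicate 2 or 3 or CL replicate 1 (adjusted p up to 0.140).

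The members that fell in this group were Abcd2 and Pxmp2. Abcd2, a transporter of very long-chain and polyunsaturated acyl-CoAs, was at 145, 136, 158, 117 and 134 CPM in Chow control and 54.9, 96.8, 101, 49.5 and 66.5 CPM in Chow C-3BO. In the injected mice on chow it was at 231, 167, 151, 218 and 157 CPM with saline and 78.5, 147, 94.2, 68.6 and 90.0 CPM with CL. In each cohort all treated mice were below all untreated mice on chow, with log2 fold changes of -0.90 ± 0.25 (adjusted p = 0.00597) for C-3BO and -0.95 ± 0.25 (adjusted p = 0.00782) for CL. On HFD the ranges overlapped (62.8 to 154 CPM in C-3BO against 111 to 164 CPM in control mice, and 62.0 to 135 CPM with CL against 71.2 to 238 CPM with saline), and Abcd2 had log2 fold changes of -0.49 ± 0.25 (adjusted p = 0.125) and -0.71 ± 0.26 (adjusted p = 0.0402). The CL value was no longer called with the replicate block (adjusted p = 0.0768) or without saline replicate 2, 3 or 5 or CL replicate 2, 4 or 5 (adjusted p up to 0.148). Pxmp2, a channel of the peroxisomal membrane, fell in C-3BO mice on chow (-0.55 ± 0.21, adjusted p = 0.0445) and on HFD (-0.54 ± 0.22, adjusted p = 0.0477), and without replicates 4 and 5 the HFD value was -0.37 ± 0.24 (adjusted p = 0.279). With 1 mouse left out, the chow call was kept in the fits without control replicate 2 or C-3BO replicate 1 and lost in the other 8 (adjusted p up to 0.122), and the HFD call was kept without control replicate 4 or C-3BO replicate 2 or 3 and lost in the other 7 (up to 0.140). The chow call was also lost with the replicate block (adjusted p = 0.057). With CL it was not past the test (-0.11 and -0.55, adjusted p = 0.778 and 0.0890).

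**Figure D3:**
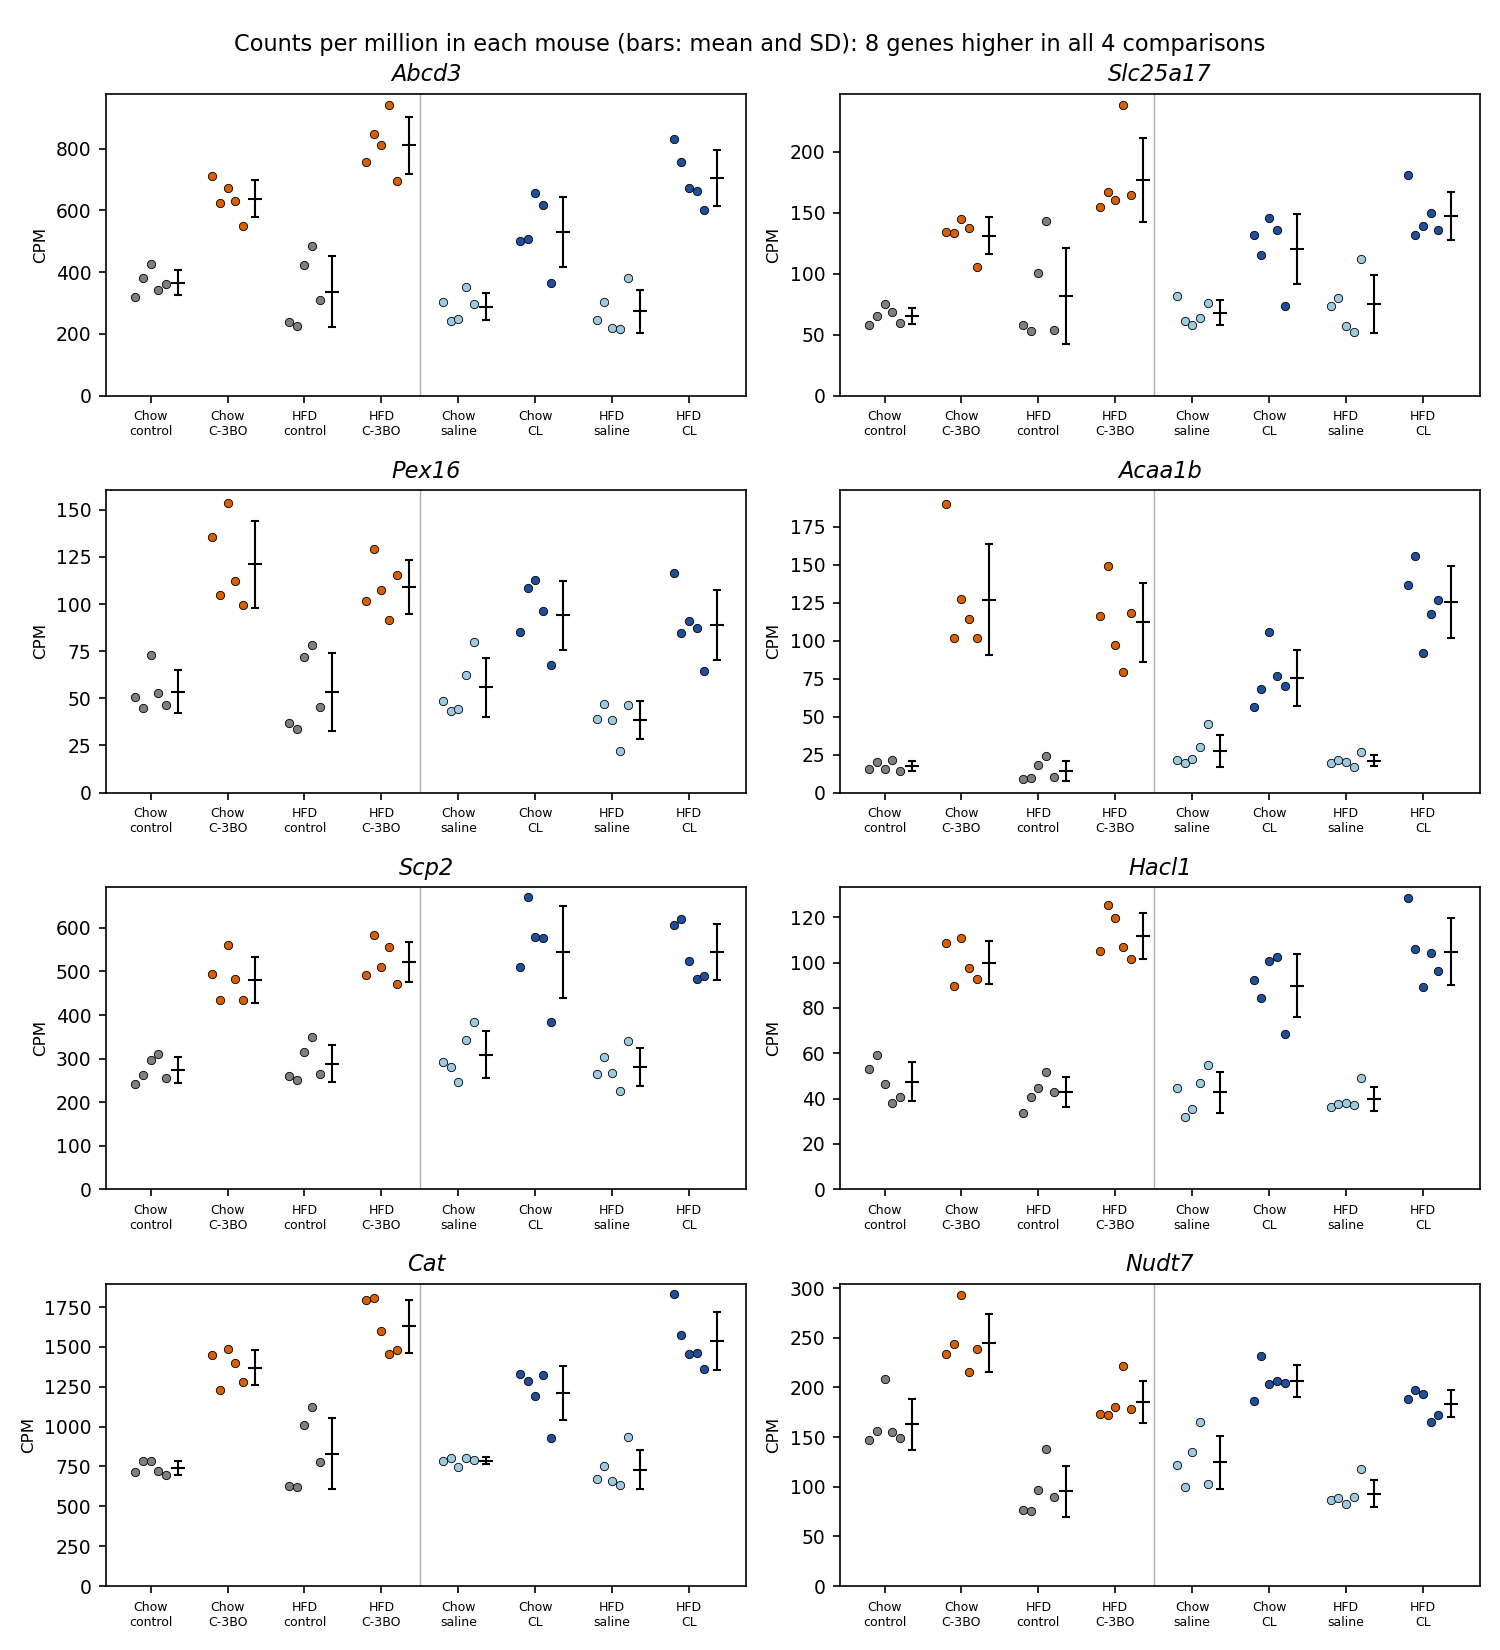
CPM (vertical axes, from 0) of 8 genes that rose in all 4 treatment comparisons, in each mouse (points) by group, with the mean and SD beside the points. C-3BO and CL mice lie above their own controls, except that Chow CL and Chow saline mice overlap for Pex16 and Slc25a17, and Chow CL replicate 5, the rightmost point of its group, is the lowest CL mouse on chow for Abcd3, Slc25a17, Pex16, Scp2, Hacl1 and Cat.

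Beta-oxidation held the largest changes. Acaa1b, the thiolase introduced with its sequence, stood at 15.5, 20.1, 15.2, 21.5 and 14.1 CPM in Chow control and 190.0, 102, 127, 114 and 102 CPM in Chow C-3BO. On HFD it stood at 8.71, 9.52, 18.1, 24.2 and 10.0 CPM in control and 116, 149, 97.3, 79.5 and 118 CPM in C-3BO mice. The lowest C-3BO mouse was above the highest control by a wide margin on both diets, and Acaa1b rose by log2 fold changes of 2.87 ± 0.25 (adjusted p = 8.22e-11) and 2.98 ± 0.25 (adjusted p = 9.92e-12), with 3.09 ± 0.27 (adjusted p = 7.80e-11) on HFD without replicates 4 and 5. With saline and CL it stood at 21.2, 19.3, 21.8, 29.7 and 45.2 CPM and 56.6, 68.2, 106, 76.8 and 70.1 CPM on chow. In HFD mice it was at 19.7, 21.6, 20.1, 17.1 and 27.0 CPM with saline and 137, 156, 91.7, 117 and 127 CPM with CL. CL mice were above saline mice on both diets, with log2 fold changes of 1.46 ± 0.23 (adjusted p = 3.27e-05) and 2.54 ± 0.25 (adjusted p = 3.32e-09). Its close copy Acaa1a stayed between 68.2 and 158 CPM over all 40 mice and was called in none of the 4 comparisons (log2 fold changes 0.24, 0.08, -0.19 and 0.13, adjusted p = 0.0926, 0.585, 0.235 and 0.441).

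Ehhadh (chr16:21761358-21787907, minus strand), the L-bifunctional enzyme that hydrates and dehydrogenates enoyl-CoAs, rose in C-3BO mice on both diets and passed the test with CL on neither. It was at 46.5, 46.0, 36.8, 49.1 and 44.6 CPM in Chow control and 1009, 348, 523, 579.5 and 131 CPM in Chow C-3BO. On HFD control mice had 23.5, 24.2, 146, 69.3 and 27.4 CPM and C-3BO mice 157, 727, 263, 265 and 181 CPM. C-3BO mice were above controls on both diets but differed among themselves by several fold, and the log2 fold changes were 3.54 ± 0.54 (adjusted p = 4.70e-06) and 2.45 ± 0.52 (adjusted p = 0.000295), with 2.71 ± 0.56 (adjusted p = 0.000448) on HFD without replicates 4 and 5. With saline and CL on chow, Ehhadh was at 248, 73.4, 95.6, 144 and 242 CPM and 69.4, 74.4, 273, 123 and 109 CPM. On HFD the injected mice had 40.1, 45.4, 29.5, 25.1 and 130.1 CPM with saline and 142, 112, 51.2, 108 and 76.9 CPM with CL. The groups overlapped on both diets, and neither log2 fold change passed (-0.31 ± 0.49, adjusted p = 0.734, and 0.81 ± 0.52, adjusted p = 0.273). Chow saline mice, at 73.4 to 248 CPM, were all above the Chow control mice of the C-3BO cohort, at 36.8 to 49.1 CPM. These are untreated groups of separate cohorts, which differ in injections and may differ in age, so that their difference was not tested.

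Hsd17b4, the D-bifunctional enzyme, which acts on both straight and branched chains, rose by a nearly equal amount in all 4 comparisons (log2 fold changes 0.59, 0.66, 0.62 and 0.60, adjusted p = 6.40e-05, 9.22e-06, 9.89e-05 and 8.62e-05). Scp2 (chr4:107716435-107791152, minus strand), which encodes the thiolase for branched chains and a lipid carrier, was at 241, 263, 297, 311 and 255 CPM in Chow control and 495, 434, 561, 483 and 434 CPM in Chow C-3BO. It was at 293, 282, 246, 342 and 384 CPM in Chow saline and 509, 671, 579, 577 and 385 CPM in Chow CL. On chow, treated mice were above untreated ones in both cohorts, by 1 CPM in the injected mice, where CL replicate 5 was lowest and saline replicate 5 highest. On HFD Scp2 was at 471 to 583 CPM in C-3BO against 251 to 349.6 CPM in control mice and at 482 to 619 CPM with CL against 225 to 341 CPM with saline. The log2 fold changes of Scp2 were 0.82 ± 0.13 (adjusted p = 6.12e-06) and 0.86 ± 0.13 (adjusted p = 1.76e-06) for C-3BO and 0.82 ± 0.13 (adjusted p = 2.05e-05) and 0.95 ± 0.13 (adjusted p = 8.19e-07) for CL. Amacr, the racemase that readies branched acyl-CoAs for oxidation, went from 33.1, 35.3, 50.9, 55.2 and 45.4 CPM in HFD control to 83.0, 95.5, 95.1, 76.9 and 98.980 CPM in HFD C-3BO, without overlap. It rose by 0.69, 1.03, 0.55 and 0.79 on the log2 scale in the 4 comparisons (adjusted p = 0.000182, 3.02e-07, 0.00471 and 8.95e-05).

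The auxiliary enzymes for unsaturated chains differed among themselves. Decr2 (chr17:26218156-26227109, minus strand), the peroxisomal 2,4-dienoyl-CoA reductase, was at 77.2, 74.5, 70.3, 94.1 and 74.2 CPM in Chow control and 208, 124, 163, 145 and 115 CPM in Chow C-3BO. On HFD it was at 62.7, 60.1, 113, 84.5 and 72.2 CPM in control and 179, 242, 159, 103 and 131 CPM in C-3BO mice. Groups were apart on chow and overlapped on HFD through control replicate 3 and C-3BO replicate 4, with log2 fold changes of 0.95 ± 0.18 (adjusted p = 9.60e-05) and 1.06 ± 0.18 (adjusted p = 1.57e-05). With CL, Decr2 was at 74.2 to 107 CPM against 65.4 to 95.5 CPM with saline on chow and at 64.5 to 103 CPM against 42.1 to 68.1 CPM on HFD, with log2 fold changes of 0.13 ± 0.18 (adjusted p = 0.687) and 0.44 ± 0.19 (adjusted p = 0.0869). Ech1, the member of highest level per length, was at 1309.6, 1350.3, 1667, 1691 and 1575 CPM in HFD control and 2023, 2451, 2015, 2008 and 2157 CPM in HFD C-3BO. All HFD C-3BO mice were above all HFD controls (log2 fold change 0.49 ± 0.10, adjusted p = 0.000180), and Ech1 also rose with CL (0.39 ± 0.10, adjusted p = 0.00577, on chow and 0.44 ± 0.10, adjusted p = 0.00119, on HFD), but not past the test in Chow C-3BO (0.23 ± 0.10, adjusted p = 0.0663). Pecr, the trans-2-enoyl-CoA reductase, rose in the same 3 comparisons (log2 fold changes 0.81, 0.56 and 0.69, adjusted p = 3.76e-05, 0.00602 and 0.00139) and had 0.14 in Chow C-3BO (adjusted p = 0.473).

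The acyl-CoA oxidases among the members, which dehydrogenate the chain in the first step and release hydrogen peroxide, did not share this pattern. Acox3, for branched chains, was called once, in Chow C-3BO (0.22 ± 0.08, adjusted p = 0.0284), and not without control replicate 3 or 4 or C-3BO replicate 4 (adjusted p up to 0.0749). Acox2 (chr14:9058025-9091533, minus strand), for branched chains and bile acid precursors, was the lowest member in level, at 5.12, 9.83, 10.8, 2.71 and 5.33 CPM in Chow control and 2.26, 2.78, 3.23, 2.44 and 3.72 CPM in Chow C-3BO. In Chow saline it was at 1.30, 2.12, 2.95, 3.05 and 1.45 CPM and in Chow CL at 3.74, 7.12, 3.05, 2.96 and 6.13 CPM. Control replicate 4 lay within the C-3BO range, and the log2 fold changes were -1.21 ± 0.38 (adjusted p = 0.0125) for C-3BO and 1.07 ± 0.38 (adjusted p = 0.0514) for CL. Without Chow control replicate 3, the highest mouse of that group, the C-3BO value was -0.98 (adjusted p = 0.0533). On HFD Acox2 was at 0.432 to 2.22 CPM in control, 1.36 to 3.89 CPM in C-3BO, 0.157 to 2.18 CPM in saline and 1.36 to 3.20 CPM in CL mice. It was called in neither treatment comparison on HFD. A level of 3 counts is 0.206 to 0.615 CPM in the HFD control and HFD C-3BO libraries and 3.01 CPM in HFD saline replicate 4. The part of low counts in the missing calls was not tested.

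Alpha-oxidation, which removes 1 carbon from phytanic acid before beta-oxidation, split between its enzymes. Hacl1 (chr14:32420412-32454151, minus strand), the lyase that cleaves the hydroxylated acid, was at 53.1, 59.2, 46.5, 38.2 and 40.6 CPM in Chow control and 109, 89.6, 111, 97.7 and 92.8 CPM in Chow C-3BO. It was at 33.6, 40.6, 44.8, 51.9 and 43.1 CPM in HFD control and 105, 125, 119.8, 107 and 102 CPM in HFD C-3BO. No mouse overlapped on either diet, with log2 fold changes of 1.07 ± 0.13 (adjusted p = 1.34e-07) and 1.39 ± 0.13 (adjusted p = 3.48e-10). The injected mice had 44.7, 32.1, 35.5, 46.9 and 54.7 CPM with saline and 92.4, 84.6, 101, 103 and 68.6 CPM with CL on chow. On HFD they had 36.5, 37.5, 38.1, 37.1 and 49.2 CPM and 129, 106, 89.0, 104 and 96.3 CPM. Again the groups were apart, and CL gave log2 fold changes of 1.07 ± 0.13 (adjusted p = 5.89e-07) and 1.40 ± 0.14 (adjusted p = 3.49e-09), the largest of any member with CL on HFD after Acaa1b.

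Phyh (chr2:4840042-4859789, plus strand), the hydroxylase that acts just before HACL1, was called higher in none of the 4 comparisons. It was at 997, 1031, 1065, 1023 and 979 CPM in Chow control and 761, 727, 934, 694 and 657 CPM in Chow C-3BO. On chow it was at 750.5, 757, 712, 784 and 699 CPM with saline and 889, 814, 692, 787 and 848 CPM with CL. All Chow C-3BO mice were below all Chow controls, and the saline and CL mice overlapped, with log2 fold changes of -0.43 ± 0.08 (adjusted p = 7.30e-05) and 0.12 ± 0.08 (adjusted p = 0.329). On HFD Phyh was at 809.6, 856, 856, 863 and 906 CPM in control and 790.5, 772, 755, 774 and 808 CPM in C-3BO mice, which did not overlap although the test was not passed (log2 fold change -0.14 ± 0.08, adjusted p = 0.179). For CL on HFD the value was 0.04 ± 0.08 (adjusted p = 0.787). Skeletal muscle transcripts moved with the groups on chow: their sum over 8 genes was 892 to 10069 CPM in Chow control and 488 to 4160.2 CPM in Chow C-3BO. Their part in the Phyh difference was not tested.

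The 3 ether lipid genes had 1 call over the 4 comparisons, a rise in HFD C-3BO, where 19.3% of all tested genes rose. Gnpat, which adds the first acyl chain, was at 448, 465, 459, 523 and 551 CPM in Chow control and 491, 487, 540.1, 509 and 462 CPM in Chow C-3BO. These overlapped fully, and its log2 fold changes in the 4 comparisons were 0.03, 0.19, -0.04 and 0.17 (adjusted p = 0.840, 0.0681, 0.822 and 0.132). Agps, which forms the ether bond, was called once, in HFD C-3BO (0.39 ± 0.12, adjusted p = 0.00979, the call lost without replicates 4 and 5, or replicate 4 alone, adjusted p = 0.0681). Far1, which supplies the fatty alcohol, had negative log2 fold changes in all 4 (-0.38, -0.16, -0.19 and -0.28), none past the test (adjusted p = 0.0645, 0.468, 0.462 and 0.219). All 5 Chow C-3BO mice, at 17.7 to 21.0 CPM, were nevertheless below the Chow controls, at 22.9 to 27.1 CPM.

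All 5 genes of the matrix group (catalase, the protease, 2 nudix hydrolases and the NADP-dependent isocitrate dehydrogenase) rose in HFD C-3BO and in both CL comparisons, and 4 of the 5 rose in Chow C-3BO. Of all tested genes, 19.3% rose in HFD C-3BO, 9.16% and 12.7% with CL on chow and HFD, and 15.8% in Chow C-3BO. Cat, whose promoter was given first, breaks down hydrogen peroxide. It was at 717, 782, 785, 722 and 695 CPM in Chow control and 1449, 1229, 1489, 1398 and 1279 CPM in Chow C-3BO. On HFD the values were 629, 624, 1009, 1120.1 and 776 CPM in control and 1796, 1806, 1600.4, 1455 and 1484 CPM in C-3BO mice. The groups did not overlap on either diet, although HFD control replicates 3 and 4 stood well above the other controls, and Cat rose by 0.89 ± 0.13 (adjusted p = 1.39e-06) and 0.97 ± 0.13 (adjusted p = 1.95e-07). With saline and CL on chow it was at 784, 802, 749, 805 and 793 CPM and 1332, 1284, 1193, 1322 and 927 CPM. On HFD it was at 672, 753, 658, 631 and 935 CPM and 1835, 1577, 1455, 1464 and 1364 CPM. CL mice were above saline mice on both diets, CL replicate 5 on chow being nearest to them, with log2 fold changes of 0.62 ± 0.13 (adjusted p = 0.000608) and 1.07 ± 0.13 (adjusted p = 7.49e-08).

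Nudt7, a hydrolase of coenzyme A and acyl-CoAs, was at 147, 156, 208, 155 and 149 CPM in Chow control and 234, 244, 293, 215 and 239 CPM in Chow C-3BO. On HFD it was at 76.4, 75.7, 96.6, 138 and 89.7 CPM in control and 173, 172, 181, 222 and 178 CPM in C-3BO mice. C-3BO mice were above controls on both diets, and both groups were lower on HFD, where the highest control had 138 CPM. For saline and CL the ranges were 99.5 to 165 against 186 to 231 CPM on chow and 82.8 to 118 against 165 to 197 CPM on HFD. Nudt7 rose by 0.59 ± 0.13 (adjusted p = 0.000799), 0.96 ± 0.13 (adjusted p = 7.41e-07), 0.72 ± 0.13 (adjusted p = 0.000209) and 0.97 ± 0.14 (adjusted p = 1.93e-06) in the 4 comparisons. Lonp2, the matrix protease, had smaller log2 fold changes of 0.43, 0.51, 0.34 and 0.56 (adjusted p = 0.000665, 6.31e-05, 0.0133 and 3.86e-05). Its call with CL on chow was lost without saline replicate 2 or 3 (adjusted p up to 0.0664). Idh1, which makes NADPH in the cytosol and the peroxisome, had 0.48, 0.58, 0.78 and 0.66 (adjusted p = 0.00154, 0.000177, 1.23e-05 and 6.78e-05). Nudt19, a second hydrolase of coenzyme A, passed in 3 comparisons (0.47, 0.42 and 0.41, adjusted p = 0.00119, 0.00886 and 0.00820) and not in Chow C-3BO (0.24, adjusted p = 0.102).

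Other tissue transcripts moved with some of these comparisons. Beside the muscle values on chow given with Phyh, muscle transcripts were at 45.8 to 2769 CPM in Chow saline and 49.8 to 196 CPM in Chow CL. Macrophage transcripts, over 5 genes, were at 276 to 685 CPM in HFD saline against 117 to 358 CPM in HFD CL, and at 97.1 to 213 CPM in HFD control against 91.8 to 115 CPM in HFD C-3BO. The summed liver transcripts, over 19 genes, were at 131 to 356 CPM in HFD saline and 299 to 569 CPM in HFD CL. Their part in the CL result on HFD was not tested. On chow the same sum was at 116 to 421 CPM with saline and 103 to 434 CPM with CL. Unlike Alb, it therefore did not set the 12 smallest libraries apart. The part of muscle and macrophage transcripts in the results was not tested.

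Gpr3 overexpression and CL were set against each other by testing whether the log2 fold change of C-3BO differed from that of CL. On chow it differed for 9 of the 39 genes (6.24% of all tested genes), and on HFD for none (1.8% of all genes, 3 members at an unadjusted p under 0.05 by edgeR, and 0 by DESeq2). On chow, C-3BO had the higher effect for 6 genes. Ehhadh differed most, with a difference of 3.84 ± 0.72 (adjusted p = 0.000767) on the log2 scale, followed by Acaa1b (1.41 ± 0.33, adjusted p = 0.00730), Decr2 (0.82 ± 0.25, adjusted p = 0.0439), Pex14 (0.62 ± 0.19, adjusted p = 0.0411), Pex13 (0.54 ± 0.15, adjusted p = 0.0260) and Pex3 (0.52 ± 0.16, adjusted p = 0.0474). CL had the higher effect for Acox2, Phyh and Pex2, with differences of -2.28 ± 0.54 (adjusted p = 0.00750), -0.56 ± 0.11 (adjusted p = 0.00196) and -0.47 ± 0.13 (adjusted p = 0.0223). The untreated groups also stood apart for Phyh, at 979 to 1065 CPM in Chow control and 699 to 784 CPM in Chow saline, while Chow C-3BO and Chow CL mice overlapped. For Acox2 they were at 2.71 to 10.8 and 1.30 to 3.05 CPM, overlapping, as they did for Pex2. For Ehhadh the untreated mice were apart, at 36.8 to 49.1 CPM in Chow control and 73.4 to 248 CPM in Chow saline. For Acaa1b they were at 14.1 to 21.5 and 19.3 to 45.2 CPM, overlapping, as they also did for Decr2, Pex14, Pex13 and Pex3. The part of the untreated levels in these differences was not tested. On chow, both treatments raised Acaa1b and C-3BO raised it more. Ehhadh, Decr2, Pex13, Pex14 and Pex3 passed the test on chow with C-3BO and not with CL. On HFD, Pex13 and Pex3 also passed with CL.

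Some of these differences depended on single mice. Without Chow CL replicate 5, the differences on chow fell from 9 to 5, and Ehhadh, Acaa1b, Acox2, Phyh and Pex2 remained. Without Chow saline replicate 4 the count was also 5, Pex13, Pex14, Pex3 and Decr2 being lost. The differences of Ehhadh, Acaa1b and Phyh were kept in every alternative tried. On HFD the difference for Ehhadh was 1.64 (adjusted p = 0.284) and for Acaa1b 0.44 (adjusted p = 0.654). The C-3BO and CL mice came from separate cohorts with their own controls, so cohort and treatment cannot be told apart. By the paper's account, tissue of CL mice was taken the day after the last injection, while C-3BO mice overexpressed Gpr3 from early life. The length of stimulation and the time since the last dose cannot be told apart from treatment either.

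**Figure D4:**
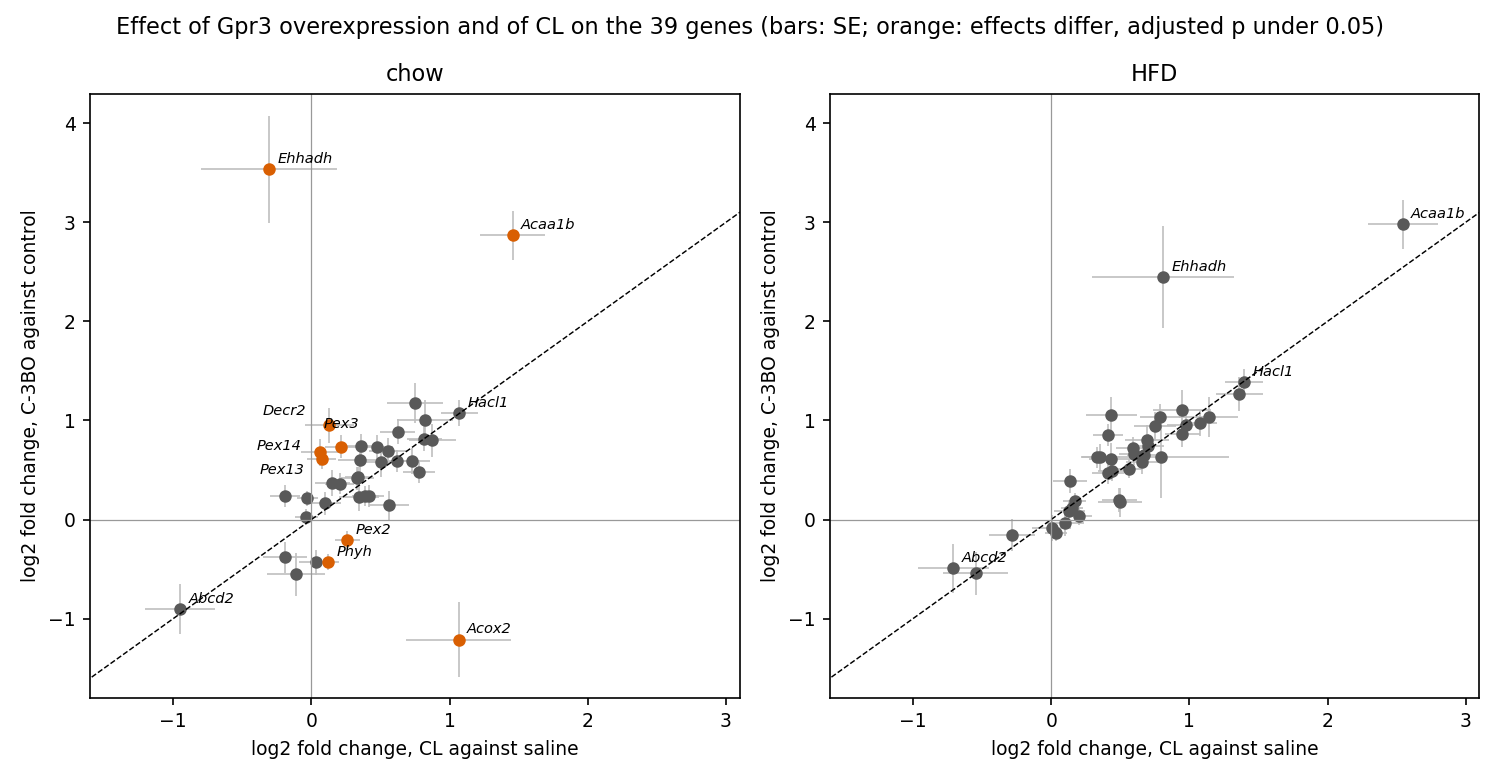
Log2 fold change of each of the 39 genes with C-3BO (vertical axis) against that with CL (horizontal axis), on chow and on HFD, with SE as bars, the dashed line marking equal effects and orange marking an adjusted p of the difference under 0.05. On chow 9 genes are marked, Ehhadh (3.54 against -0.31) farthest from the line, and on HFD none is.

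**Figure D5:**
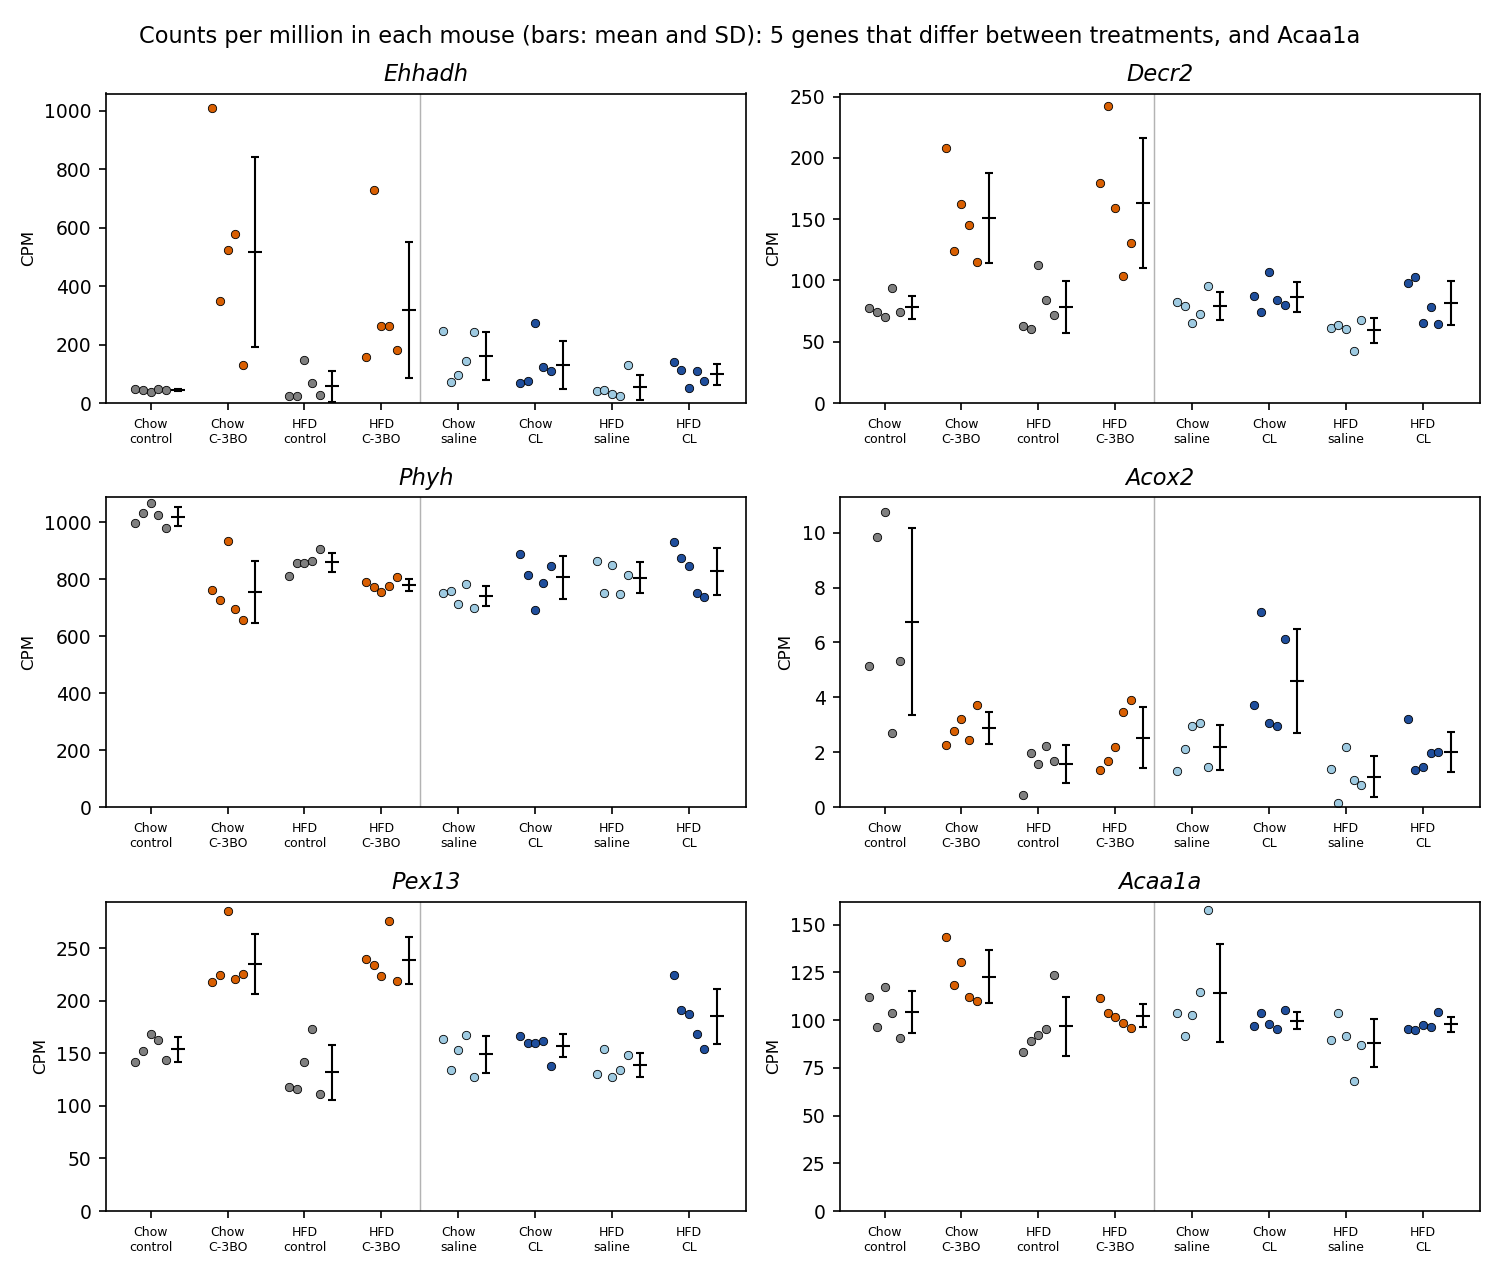
CPM in each mouse (points) by group, with the mean and SD beside the points and vertical axes from 0, for 5 genes whose C-3BO and CL effects differed on chow and for Acaa1a. Ehhadh is high and scattered in both C-3BO groups, Phyh is lower in Chow C-3BO than in Chow control, and Acaa1a lies between 68.2 and 158 CPM in all mice.

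The diet itself changed fewer of the 39 genes than the treatments did. In control mice of the C-3BO cohort, HFD raised 1 member and lowered 7 (32.9% of all tested genes were called in either direction). Pex11a was higher (0.34 ± 0.12, adjusted p = 0.0273). Acox2 fell most (-2.09 ± 0.39, adjusted p = 5.52e-05), with 0.432 to 2.22 CPM on HFD and 2.71 to 10.8 CPM on chow and no overlap, and Nudt7 had a log2 fold change of -0.77 ± 0.13 (adjusted p = 2.28e-05). Pex10, Pxmp4, Pecr, Phyh and Nudt19 were also lower, with log2 fold changes between -0.41 and -0.25. This split depended on the scaling. With library totals alone, which moved the median of all genes by 0.15, 9 members were higher and 2 lower in control mice. Of all tested genes, 26.4% were higher there with that scaling. In C-3BO mice, 4 members were higher on HFD (Pex7, Pex2, Hsd17b4 and Ech1, log2 fold changes 0.39, 0.35, 0.31 and 0.42, adjusted p = 0.0497, 0.00409, 0.0323 and 0.00154) and Nudt7 was lower (-0.40 ± 0.13, adjusted p = 0.0225), where 25.7% of all genes were called. Without replicates 4 and 5 of HFD C-3BO, Pex7 was no longer called (0.25 ± 0.17, adjusted p = 0.333) and the other 4 were (16.9% of all genes). With all HFD C-3BO mice, library totals alone gave 16 higher and none lower, where 29.1% of all genes were higher and the median of all genes moved by 0.18. Muscle transcripts also moved with diet in the control mice, with a sum of 892 to 10069 CPM on chow and 35.9 to 278 CPM on HFD, and in the C-3BO mice, with 488 to 4160.2 CPM on chow and 51.9 to 117 CPM on HFD, and their part in the diet calls was not tested.

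The difference of the C-3BO effect between diets passed the test for 0 members (2.08% of all genes, 4 members at an unadjusted p under 0.05 by edgeR, and 2, Pecr and Acox2, by DESeq2). That of the CL effect passed for 0 members as well (0.0151% of all genes, 7 members at an unadjusted p under 0.05, 0 by DESeq2). In injected mice the diet cannot be told apart from the set of libraries, since all their HFD libraries were among the 12 that stood apart, so only values are given: the summed CPM of the 39 genes was 6167 to 7834 CPM in Chow saline and 6103 to 7924 CPM in HFD saline, and 8064 to 9547 CPM in Chow CL and 9490.4 to 11632 CPM in HFD CL.

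Beyond the 39, a list of 49 other peroxisome genes was examined, of which 41 were tested. In C-3BO mice on chow 18 rose and 2 fell (15.8% and 15.9% of all tested genes). On HFD 22 rose and 1 fell (19.3% and 15.5%), or 18 and 0 without replicates 4 and 5 (14.6% and 10.4%). With CL 14 rose and 0 fell on chow (9.16% and 6.13%), and 15 rose and 1 fell on HFD (12.7% and 10.8%). Ephx2, which hydrolyses lipid epoxides, rose by 1.37, 1.32, 0.83 and 1.57 in the 4 comparisons (edgeR adjusted p = 5.67e-08, 6.10e-08, 0.000369 and 5.95e-09). Acot12, an acetyl-CoA thioesterase, was low, at 0 to 0.178 CPM in HFD control and 3.48 to 9.15 CPM in HFD C-3BO, and at 0 to 0.216 CPM in Chow saline and 1.12 to 2.96 CPM in Chow CL. It rose in all 4 comparisons (adjusted p = 1.60e-07, 1.10e-11, 2.01e-06 and 3.96e-07).

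The acyl-CoA dehydrogenase gene Acad11, the carbonyl reductase gene Dhrs4 and the malonyl-CoA decarboxylase gene Mlycd also rose in all 4, with log2 fold changes from 0.66 (Acad11 with CL on chow) to 1.12 (Acad11 in HFD C-3BO). Crat, the carnitine acetyltransferase, rose by 1.16, 0.67 and 0.79 in C-3BO mice on chow, on HFD and with CL on HFD (adjusted p = 8.46e-07, 0.00115 and 0.000344), and had 0.41 with CL on chow (adjusted p = 0.0706). The thioesterase gene Acot4 rose in C-3BO mice and was not called with CL (2.04 and 1.92, adjusted p = 3.59e-05 and 0.000100, against 0.09 and 0.83 with CL, adjusted p = 0.910 and 0.174). Mpv17l, a membrane protein, rose in C-3BO mice on both diets and with CL on chow (1.10, 1.04 and 0.71, adjusted p = 9.27e-05, 0.000184 and 0.0175). Uox, the urate oxidase of liver, was called higher in HFD C-3BO (log2 fold change 6.09, adjusted p = 4.00e-05), but it was at 6.12 and 10.5 CPM in replicates 4 and 5, which carry the liver transcripts, and at 0, 0.339 and 0.245 CPM in the other 3 mice. Without replicates 4 and 5 its log2 fold change was 2.21 (adjusted p = 0.158).

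Of 8 transcription regulators, 2 rose in C-3BO mice on chow (15.8% of all genes did), 2 rose and 2 fell on HFD (19.3% and 15.5%), 1 rose and 1 fell with CL on chow (9.16% and 6.13%), and 1 fell with CL on HFD (10.8%). Over so few genes these counts are close to the shares of all genes, and nothing is read from them. Rxra, the partner of the PPARs, rose in C-3BO mice (0.50 and 0.25, adjusted p = 9.52e-05 and 0.0380). Prdm16, a determinant of brown fat identity that is also known to raise peroxisome genes, rose in Chow C-3BO (0.72, adjusted p = 0.00138), and Esrra, an estrogen-related receptor, in HFD C-3BO and with CL on chow (0.35 and 0.32, adjusted p = 0.0123 and 0.0437). Ppara had 0.42, -0.52, 0.19 and -0.19 (adjusted p = 0.0521, 0.0141, 0.478 and 0.437), its fall in HFD C-3BO being lost without replicates 4 and 5 (adjusted p = 0.201). The coactivator gene Ppargc1b fell in HFD C-3BO (-0.56, adjusted p = 0.00354, which became 0.0632 without replicates 4 and 5) and with CL on HFD (-0.87, adjusted p = 5.89e-05). Ppard, another PPAR gene, fell with CL on chow (-0.41, adjusted p = 0.00520), and Pparg and Ppargc1a passed in none of the 4 comparisons (log2 fold changes -0.24, -0.12, 0.02 and -0.11, and 0.04, 0.19, 0.13 and -0.02).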

How the data were processed

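BAT RNA was measured in 40 libraries, 8 groups of 5 mice, grouped by GEO's labels. The authors sequenced poly(A) RNA (TruSeq libraries, HiSeq 1500), aligned reads with STAR to mm9, built tag directories with HOMER and deposited raw exon counts per gene made with iRNA-seq. Tool versions, strandedness and filters are not given in the sources used here. The deposited table had 0 columns without a sample label.

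From these counts, genes were kept by edgeR's filterByExpr (minimum count 10), leaving 13277. Libraries were scaled by TMM, and a mean for each group was estimated over the 40 libraries together with edgeR 4.0.16 (glmQLFit and glmQLFTest, R 4.3.3). P-values were adjusted by the Benjamini-Hochberg method over all tested genes and called under 0.05. Differences between effects were contrasts of the same fit. The SE was worked back from the test, as the size of the log2 fold change divided by the square root of the quasi-likelihood F statistic. CPM are counts per 1000000 of TMM-scaled libraries, and RPKM are CPM per kilobase of exon. DESeq2 1.42.0 was run as an alternative, with other filters, library totals, the compared groups alone, a replicate block and each mouse left out. The scripts were tested on simulated data. Depth limits precision: 3 counts are 0.206 to 3.01 CPM. Bars of SD describe the spread of mice, and bars of SE belong to the fitted log2 fold changes. P-values test differences of group means against the spread between mice, estimated over the 40 libraries together. No pair of libraries of a group agreed within sampling noise (lowest chi-square per degree of freedom 2.82 over 80 pairs).

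The members and gene lists were chosen with earlier results of these data known. Full statistics were given for members past a log2 fold change of 1 in a treatment comparison, for at most 10 called the same way in 3 or more comparisons by smallest adjusted p, for those called in a difference of effects, and for the highest per length of each role group, and the rest were summarised. Of the wider list, at most 10 genes past a log2 fold change of 1 were named by smallest adjusted p, with all regulators. A gene of that list is not reported here. Promoter windows were read from mm9 at RefSeq starts. Protein sequences and targeting signals were not analysed here.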

Additional observations from a re-analysis of the deposited data

Results flagged for a closer look

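Single mice stood far from the rest of their group in 22 of 192 groups examined (24 genes in 8 groups of 5, by Dixon's test of the gap to the nearest mouse), where chance flags about 1 in 20. All values are CPM. Chow control replicate 3 was high for Pex7 (55.3), Pex2 (127), Pex19 (301) and Nudt7 (208). Decr2 was high at 94.1 in Chow control replicate 4 and Pex11a at 41.3 in Chow control replicate 5. In Chow C-3BO, Pex13 was high at 285 in replicate 3 and Acaa1b at 190.0 in replicate 1. In HFD C-3BO, replicate 4 was high for Slc25a17 (238) and Nudt7 (222), and replicate 2 for Ehhadh (727).

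Chow saline replicate 5 was high for Pex7 (51.8) and Pex6 (418). Chow CL replicate 5, the mouse with Ucp1 in the saline range, was low for Pex13 (138) and Gnpat (443), and Chow CL replicate 3 was high for Ehhadh (273). HFD saline replicate 5 was high for Ehhadh (130.1), Hacl1 (49.2) and Nudt7 (118), and HFD saline replicate 4, the library of lowest total, was low for Pex6 (234) and Decr2 (42.1). HFD CL replicate 1 was high for Pex7 (82.6). Replicates 1 of HFD CL and 5 of HFD saline were also the highest of their groups for 26 and 23 of the 39 genes.

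The effect of C-3BO differed from that of CL on chow, by a test of the difference, for 9 members. The differences on the log2 scale (C-3BO minus CL) were 3.84 for Ehhadh, 1.41 for Acaa1b, 0.82 for Decr2, 0.62 for Pex14, 0.54 for Pex13 and 0.52 for Pex3, and -2.28 for Acox2, -0.56 for Phyh and -0.47 for Pex2. Their causes were not tested.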

How the results depend on the processing

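Counts of members that rose stayed within 1.5 times of the reported ones under every alternative: 21 to 26 for C-3BO on chow, 25 to 27 on HFD, 15 to 21 for CL on chow and 20 to 26 on HFD. Of the 103 calls of all members in these comparisons, 20 were lost under at least 1 alternative. No log2 fold change of the 24 members described in full changed direction, and of 720 values with 1 mouse left out, 37 lost their call, as did 17 of 522 under the other alternatives. Small counts moved more, and the causes were not tested. Members that fell in C-3BO mice on chow numbered 3 to 6 (reported 5) with 1 mouse left out. On HFD they numbered 0 to 2 (reported 1), 3 with library totals and 0 without replicates 4 and 5. With CL, 2 fell on chow under library totals (reported 1), and on HFD 2 under library totals, 3 with the compared groups alone and 0 to 1 with 1 mouse left out (reported 1). HFD against chow in C-3BO mice gave 16 members with library totals, all higher, where 29.1% of all genes were higher. It gave 9 with the compared groups alone, 3 without a filter and 3 to 4 with 1 mouse left out (reported 5). Differences between C-3BO and CL numbered 5 to 10 on chow (reported 9) and 0 to 1 on HFD (reported 0, Pex13 without HFD control replicate 4) with 1 mouse left out. The C-3BO effect differed between diets for 2 members by DESeq2 and 0 to 1 with 1 mouse left out (reported 0).

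Mice were not paired by replicate number in the main fit, and no comparison had every pair of same-numbered mice correlating above 0.1. This does not exclude pairing of some mice. In C-3BO against control on chow the correlations ran from -0.0366 to 0.444. In each C-3BO comparison 3 mice correlated best with the control of their own number. With the replicate block, no member fell with CL on HFD (0, reported 1) and 1 member, Pecr, differed in the C-3BO effect between diets (reported 0). Past a log2 fold change of 1, library totals gave 2 rather than 5 members higher in Chow C-3BO and 4 rather than 8 in HFD C-3BO. Depth limits Acox2, which had as few as 1 count in a library, and HFD saline replicate 4.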

Other observations

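Some members share a start region with a gene read in the other direction. The start of Hacl1 lay 91 bases from that of Btd, the gene of biotinidase, which recycles biotin. Btd rose in C-3BO mice on chow and HFD and with CL on HFD (log2 fold changes 0.48, 0.52 and 0.40, edgeR adjusted p = 0.000785, 0.000248 and 0.00834), and had 0.18 with CL on chow (adjusted p = 0.276), where Hacl1 had 1.07. Other neighbours of this kind were Wdr93 of Pex11a (137 bases), Pole of Pxmp2 (150 bases), Tmem169 of Pecr (58 bases), Pikfyve of Idh1 (205 bases) and, closest of all, 2810004N23Rik of Gnpat (3 bases).

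Some mice were the highest of their group for many members. HFD control replicate 4 was the highest of its group for 23 of the 39 genes and had 9447 CPM of Ucp1, against 2574 CPM in the lowest mouse of that group. Chow control replicate 3 was the highest for 22 of the 39, with 1257 CPM of Ucp1, inside its group's range of 1116 to 1378 CPM. It also had the highest muscle (10069 CPM) and macrophage (213 CPM) sums of its group, whose part was not tested.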
